A study of Arabidopsis thaliana with 9 samples.

Results

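HEME1 (AT3G14930), CHLI2 (AT5G45930) and CHLM (AT4G25080) are nuclear genes for enzymes of tetrapyrrole synthesis that act before protochlorophyllide is reduced. These 3 genes are also on a list of 24 tetrapyrrole genes up to protochlorophyllide, written from general knowledge. Each is read by 1 probe set among the 22746 probe sets of the ATH1 array that are not controls. The 3 genes were chosen by their place in the pathway, which other genes of that list share. Their differences between CAB3::pBVR2 and 35S::pBVR3 were already known. That comparison is therefore given as a description with no test, and so is CAB3::pBVR2 against No-0 WT, which shares the same arrays. The tests are those of No-0 WT against the mean of the pBVR lines, whose estimate is independent of the choosing difference, and of 35S::pBVR3 against No-0 WT. This independence holds only for the estimate, since the p-values use a spread to which the arrays of the choosing difference also contribute. It also holds only against that difference, since other earlier results of these data were known as well.

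RNA levels were measured in whole Arabidopsis seedlings, aged 7 days and grown under continuous far-red light (FRc), with 3 arrays for each of 3 lines. All seeds had received a red light pulse of 5 min and 3 days of cold in darkness before growth. No-0 WT is the wild type of the Nossen background and carries no transgene. The 35S::pBVR3 and CAB3::pBVR2 lines carry a plastid-targeted biliverdin reductase (pBVR), an enzyme that removes the bilin precursor of the phytochrome chromophore and so inactivates phytochromes. The 35S promoter is active in most cells of the plant, and the CAB3 promoter is active mainly in mesophyll. Each pBVR type was represented by 1 transgenic line, so a difference between promoters cannot be told apart from a difference between these lines. No transgene level was analysed here. In RNA from whole seedlings, fewer cells of a type and less RNA per cell cannot be told apart.

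Chlorophyll and heme are made in plastids from 5-aminolevulinic acid (ALA), which is formed from glutamate bound to a transfer RNA. ALA is condensed and modified to protoporphyrin, from which the magnesium branch leads to protochlorophyllide and chlorophyll and the iron branch leads to heme and bilins, the phytochrome chromophore among them. In angiosperms the last reduction of protochlorophyllide needs light, and phytochromes are known to raise RNA levels of many genes of this pathway in seedlings. HEME1 encodes uroporphyrinogen decarboxylase, which acts on the common trunk of the pathway. CHLI2 encodes a form of the I subunit of magnesium chelatase, the ATPase subunit of the enzyme that opens the magnesium branch. CHLM encodes magnesium-protoporphyrin methyltransferase, which acts directly after the chelatase.

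All 3 genes had their highest signals in No-0 WT, intermediate signals in 35S::pBVR3 and the lowest in CAB3::pBVR2, with no overlap between the arrays of any of the lines. HEME1, CHLI2 and CHLM fell by 1.40, 1.69 and 0.88 on the log2 scale in the mean of the pBVR lines against No-0 WT, and all 3 passed the test. HEME1 and CHLI2 also fell in 35S::pBVR3 alone against No-0 WT. CHLM did not pass there in the reported fit, which leaves out the replicate number, but did with the replicate number as a block. Of all 15436 probe sets kept for the tests, 17.7% were called lower and 13.9% higher in the mean of the pBVR lines. Against No-0 WT, 5.29% were called lower and 4.25% higher in 35S::pBVR3, the background to 2 of 3 genes called lower. An order of No-0 WT over 35S::pBVR3 over CAB3::pBVR2 with no overlap of arrays, which the choice of the genes favours, was seen in 9.17% of the kept probe sets and in all 3 genes.

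**Figure D1:**
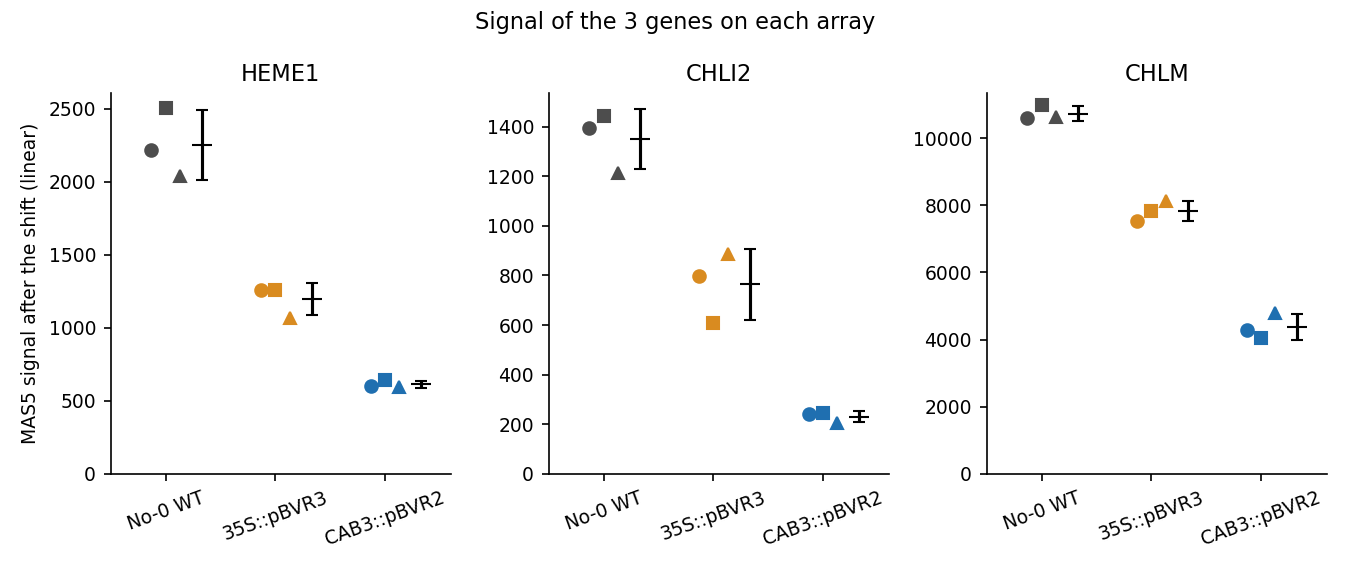
MAS5 signal after the shift to the 75th percentile of each array (linear axis from 0) for HEME1, CHLI2 and CHLM in the 3 lines. Each symbol is 1 array (circle, square and triangle for replicates 1, 2 and 3) and the bars give the mean ± SD of 3 arrays. In each gene the CAB3::pBVR2 arrays lie under all 35S::pBVR3 arrays, and these lie under all No-0 WT arrays.

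HEME1 gave signals of 2216, 2509 and 2038 on the No-0 WT arrays, of 1260, 1257 and 1068 on the 35S::pBVR3 arrays and of 601.3, 640.5 and 595.4 on the CAB3::pBVR2 arrays. These are linear MAS5 intensities after each array was shifted to a common 75th percentile. The lowest No-0 WT array was thus well over the highest 35S::pBVR3 array, and the CAB3::pBVR2 arrays lay close to each other. The means were 2254 ± 238 in No-0 WT, 1195 ± 110 with 35S::pBVR3 and 612.4 ± 24.5 with CAB3::pBVR2 (SD, n = 3 arrays). HEME1 fell by 1.40 ± 0.13 (SE) on the log2 scale, or 2.63-fold, in the mean of the pBVR lines (adjusted p = 0.000135, limma). In 35S::pBVR3 alone it fell by 0.92 ± 0.15, or 1.89-fold (adjusted p = 0.0115, limma). Genes chosen as low in CAB3::pBVR2 relative to 35S::pBVR3 tend to have high 35S::pBVR3 values, so that this choice works against a lower 35S::pBVR3 level. As a description, the log2 difference was −0.96 ± 0.15 (1.95-fold) between CAB3::pBVR2 and 35S::pBVR3, and −1.88 ± 0.15 (3.67-fold) between CAB3::pBVR2 and No-0 WT.

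CHLI2 gave signals of 1394, 1442 and 1214 in No-0 WT, of 795.7, 608.3 and 886.7 with 35S::pBVR3 and of 241, 245.7 and 207 with CAB3::pBVR2. On the log2 scale its 35S::pBVR3 arrays were the most spread of any line among the 3 genes, with replicate 2 lowest and replicate 3 highest, although all of them stayed between the other lines. The means were 1350 ± 120, 763.5 ± 142 and 231.2 ± 21.1 in the wild type, 35S::pBVR3 and CAB3::pBVR2 (SD, n = 3 arrays). CHLI2 fell by 1.69 ± 0.15 on the log2 scale, or 3.23-fold, in the mean of the pBVR lines (adjusted p = 0.000135, limma). In 35S::pBVR3 it fell by 0.84 ± 0.18, or 1.79-fold (adjusted p = 0.0242, limma). This call was lost when No-0 WT replicate 1 or 2 was left out (adjusted p = 0.0695 and 0.0867, limma), when 35S::pBVR3 replicate 1 or 2 was left out (adjusted p = 0.0593 and 0.0614, limma), and with no filter on signal (adjusted p = 0.0717, limma). The difference between CAB3::pBVR2 and 35S::pBVR3, given as a description, was −1.71 ± 0.18 (3.27-fold), and that between CAB3::pBVR2 and No-0 WT was −2.55 ± 0.18 (5.84-fold). CHLI2 is the only 1 of the 3 genes that the study itself listed among its genes differing between the pBVR lines. The study first required a test across the 3 lines, No-0 WT included, so the CHLI2 tests may not be free of that selection.

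CHLM was among the brightest probe sets of the array, with signals of 10600, 10980 and 10620 in No-0 WT, of 7528, 7827 and 8128 with 35S::pBVR3 and of 4285, 4044 and 4806 with CAB3::pBVR2. The spread within each line was small beside the steps between the lines. Mean signals were 10730 ± 213 in No-0 WT, 7828 ± 300 with 35S::pBVR3 and 4378 ± 390 with CAB3::pBVR2 (SD, n = 3 arrays). CHLM fell by 0.88 ± 0.12 on the log2 scale, or 1.84-fold, in the mean of the pBVR lines (adjusted p = 0.000664, limma). Its difference between 35S::pBVR3 and No-0 WT, −0.46 ± 0.13 (1.37-fold), did not pass the test (adjusted p = 0.0626, limma), although it did with the replicate number as a block (adjusted p = 0.0487, limma). As a description, CAB3::pBVR2 differed from 35S::pBVR3 by −0.84 ± 0.13 (1.79-fold) and from No-0 WT by −1.30 ± 0.13 (2.46-fold).

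CHLM stood at or above the 97th percentile of every array, where the top of the signal range itself differed between the lines. After the shift, the 99th percentile of all probe sets ran from 9882 to 10930 on the No-0 WT arrays, from 8393 to 10120 on the 35S::pBVR3 arrays and from 6541 to 7518 on the CAB3::pBVR2 arrays. The part of this in the CHLM values was not tested directly, but quantile normalization, which makes the signal ranges equal, gave −0.53 for the mean of the pBVR lines (adjusted p = 0.0205, limma). The same setting gave −0.23 between 35S::pBVR3 and No-0 WT (adjusted p = 0.402, limma), and −0.59 and −0.82 for CAB3::pBVR2 against 35S::pBVR3 and No-0 WT. HEME1 lay between the percentiles 76.2 and 93.2 of its arrays and CHLI2 between 53.9 and 88.4.

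Among all kept probe sets, 1.33% had a lower log2 difference than CHLI2 in the mean of the pBVR lines against No-0 WT, 2.71% a lower one than HEME1 and 8.93% a lower one than CHLM. In 35S::pBVR3 against No-0 WT these shares were 3.82% for CHLI2, 2.69% for HEME1 and 16.9% for CHLM, so that HEME1 and CHLI2 changed places. Their log2 differences there, −0.92 ± 0.15 for HEME1 and −0.84 ± 0.18 for CHLI2, lay closer to each other than either SE. The change of places was not tested. In the choosing comparison, 6.69% of the kept probe sets had a called difference toward lower CAB3::pBVR2 signals and 1.74% toward higher ones. In CAB3::pBVR2 against No-0 WT, 20.2% were called lower and 16.7% higher. Nothing is read from these about the 3 genes, since their values in CAB3::pBVR2 had been seen. All arrays of one line lay under all arrays of the other in 19.1% of the kept probe sets for 35S::pBVR3 under No-0 WT, in 15.9% for CAB3::pBVR2 under 35S::pBVR3 and in 25.8% for CAB3::pBVR2 under No-0 WT. Each of the 3 genes was among these in every comparison.

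The sizes of the changes were compared between the 3 genes by their ratios within each array, where a common scaling of the array cancels. The log2 ratio of CHLI2 to CHLM, set to a mean of 0 in No-0 WT, averaged −0.38 ± 0.27 (SD, n = 3 arrays) in 35S::pBVR3 and −1.25 ± 0.26 in CAB3::pBVR2. Its CAB3::pBVR2 arrays, at −1.16, −1.05 and −1.54, lay under all other arrays. For HEME1 to CHLM the ratio averaged −0.46 ± 0.19 in 35S::pBVR3 and −0.58 ± 0.18 in CAB3::pBVR2, and both pBVR lines lay under No-0 WT. The ratio of HEME1 to CHLI2 averaged −0.08 ± 0.39 in 35S::pBVR3, where its arrays lay on both sides of No-0 WT, and 0.67 ± 0.11 in CAB3::pBVR2, where all of them lay over the other lines at 0.58, 0.64 and 0.79.

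The ratio tests were not among the planned tests, so their p-values are a description and answer no question set in advance. In the 6 pBVR arrays against the 3 No-0 WT arrays, the CHLI2 to CHLM ratio differed by −0.81 and the HEME1 to CHLM ratio by −0.52 on the log2 scale. Both had p = 0.0238 in a two-sided exact permutation test, the smallest p that the 84 permutations can give with both tails, and an adjusted p of 0.0357 over the 3 ratios in the same exact permutation test. When arrays were exchanged only within a replicate number, since the numbers were taken to pair the samples, neither passed (exact permutation p = 0.0741, adjusted p = 0.111 for both). Here 0.0741 is the smallest p that the 27 such arrangements allow. In both ratios all 6 pBVR arrays lay under all 3 No-0 WT arrays, which the smallest p of the 84 permutations already implies. The share of other gene pairs with ratios separated in this way was not computed, so nothing particular to these genes is read from it. The HEME1 to CHLI2 ratio differed by 0.30 and did not pass (exact permutation p = 0.333, adjusted p = 0.333), with 2 of the 35S::pBVR3 arrays on the opposite side from CAB3::pBVR2.

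**Figure D2:**
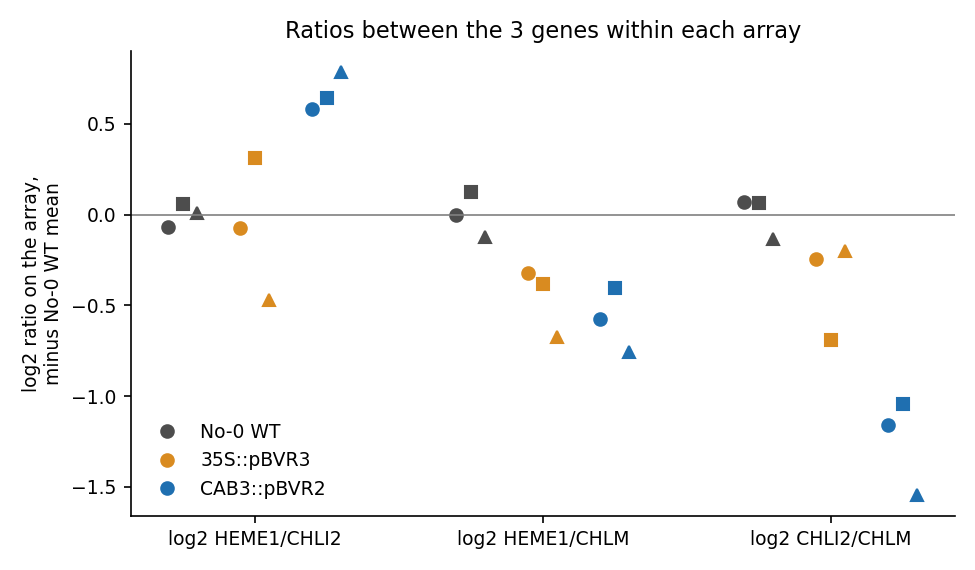
Log2 ratios between the 3 genes within each array, minus their mean in No-0 WT (vertical axis), for the pairs HEME1/CHLI2, HEME1/CHLM and CHLI2/CHLM. Each symbol is 1 array (circle, square and triangle for replicates 1, 2 and 3). The CHLI2/CHLM ratio is lowest in CAB3::pBVR2, and the HEME1/CHLI2 ratio of 35S::pBVR3 spreads to both sides of No-0 WT.

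The other genes of the list of 24 were described by the step they serve. The platform table names probe sets for 10 of the list, the 3 genes included. The study's own gene list names probe sets for 7 more, and the other 7 genes were not analysed here. CHLI1, the paralog of CHLI2, was among those not analysed, so the I subunit of magnesium chelatase is read here through CHLI2 alone. Of the 7 further genes of the platform table, 5 passed the filter on signal. Among those 5, 3 fell and 0 rose in the mean of the pBVR lines, beside 17.7% called lower over all kept probe sets, with a median log2 difference of −0.97 against 0.00 over all kept. In 35S::pBVR3 against No-0 WT 2 fell (median −0.64, beside 5.29% of all kept), in CAB3::pBVR2 against 35S::pBVR3 2 fell (median −0.64, beside 6.69%), and in CAB3::pBVR2 against No-0 WT 3 fell (median −1.29, beside 20.2%), with 0 rising in any of them. The count of 2 in 35S::pBVR3 against No-0 WT was 0 without No-0 WT replicate 2, and 1 without No-0 WT replicate 1 or without any 1 of the 35S::pBVR3 arrays. That between the pBVR lines was 1 without 35S::pBVR3 replicate 2 or 3 or without any 1 of the CAB3::pBVR2 arrays. The median of all kept probe sets was between −0.03 and 0.03 in these comparisons, which share arrays with each other.

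The first steps form ALA. GSA1, a glutamate-1-semialdehyde aminotransferase, gave 1667, 1858 and 1398 in No-0 WT, 1159, 1121 and 873 with 35S::pBVR3 and 799.1, 638.1 and 587.3 with CAB3::pBVR2, in the same order of lines as the 3 genes. It fell by 0.97 on the log2 scale in the mean of the pBVR lines (adjusted p = 0.00238, limma), and its difference of −0.64 in 35S::pBVR3 against No-0 WT did not pass (adjusted p = 0.0639, limma) except with the replicate number as a block (adjusted p = 0.0251, limma), with a stricter filter and with log2(signal + 32). The GSA1 difference between the pBVR lines, also −0.64, did not pass (adjusted p = 0.0727, limma) except with that block (adjusted p = 0.0263, limma) and with a stricter filter. HEMA2, a glutamyl-tRNA reductase, did not pass in any comparison, with mean signals of 262.3 ± 10.7, 203.8 ± 18.7 and 217.2 ± 47.1 in the wild type, 35S::pBVR3 and CAB3::pBVR2 (SD, n = 3 arrays). A further glutamyl-tRNA reductase gene, HEMA3, was not above background on any array and did not pass the filter.

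On the trunk from ALA to protoporphyrin, HEMB1, an ALA dehydratase, gave 3947, 3478 and 3458 in No-0 WT, 1899, 2318 and 1976 with 35S::pBVR3 and 1269, 1314 and 1331 with CAB3::pBVR2. HEMB1 fell by 1.15 in the mean of the pBVR lines (adjusted p = 0.000264, limma), by 0.82 between 35S::pBVR3 and No-0 WT (adjusted p = 0.0146, limma) and by 0.66 in CAB3::pBVR2 against 35S::pBVR3 (adjusted p = 0.0219, limma). The HEMB1 call between the pBVR lines was lost without 35S::pBVR3 replicate 2 or 3 and without any 1 of the CAB3::pBVR2 arrays (adjusted p from 0.054 to 0.0765, limma), with no filter on signal (adjusted p = 0.059, limma) and with only those lines in the fit (adjusted p = 0.0577, limma), and that against No-0 WT was at the threshold without No-0 WT replicate 2 (adjusted p = 0.05, limma).

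HEME2 is the other uroporphyrinogen decarboxylase gene beside HEME1. Signals of HEME2 were 2264, 2512 and 1822 in No-0 WT, 1281, 1272 and 1273 with 35S::pBVR3 and 655.6, 704.2 and 782.1 with CAB3::pBVR2, the order of lines seen for HEME1. It fell by 1.19 in the mean of the pBVR lines (adjusted p = 0.000348, limma), and fell by 0.77 between 35S::pBVR3 and No-0 WT (adjusted p = 0.0223, limma) and by 0.84 in CAB3::pBVR2 against 35S::pBVR3 (adjusted p = 0.0123, limma). The HEME2 call between 35S::pBVR3 and No-0 WT was lost without No-0 WT replicate 1 or 2 and without any 1 of the 35S::pBVR3 arrays (adjusted p from 0.0581 to 0.0829, limma) and with no filter on signal (adjusted p = 0.0644, limma). Whether either probe set also binds RNA of the other gene was not tested. HEMF2, annotated as a coproporphyrinogen oxidase, stayed near background with means of 59.6 ± 39.7, 58.28 ± 24 and 51.14 ± 15.5 and passed in no comparison. HEMB2, a further ALA dehydratase gene, did not pass the filter, with means between 43.98 and 49.36 in the 3 lines.

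The remaining genes with a name were 7 from the study's own list. That list was selected on these arrays by a test across the 3 lines, No-0 WT included, and then by a difference between the pBVR lines. Neither the direction nor the calls of these 7 genes are therefore independent evidence, and their p-values are given as a description. All 7 were called lower in the mean of the pBVR lines (median −1.49), beside 17.7% of all kept probe sets, and 3 of 7 were called lower in 35S::pBVR3 against No-0 WT (median −0.92), beside 5.29%. CHLH, the porphyrin-binding subunit of magnesium chelatase and so a partner of CHLI2, gave 10530, 10520 and 8401 in No-0 WT, 5417, 5012 and 5025 with 35S::pBVR3 and 2197, 2613 and 2215 with CAB3::pBVR2. CHLH fell by 1.49 in the mean of the pBVR lines (adjusted p = 0.000131, limma) and by 0.92 between 35S::pBVR3 and No-0 WT (adjusted p = 0.0128, limma), a call lost without No-0 WT replicate 2 (adjusted p = 0.052, limma). GUN4, which binds porphyrins and stimulates the chelatase, fell by 1.54 in the mean of the pBVR lines (adjusted p = 0.0014, limma), and its difference of −0.94 in 35S::pBVR3 did not pass (adjusted p = 0.0621, limma) although it did with the replicate number as a block (adjusted p = 0.0305, limma), with a stricter filter, with log2(signal + 32) and without CAB3::pBVR2 replicate 3.

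The steps after CHLM are served by the cyclase subunit gene CHL27 and the divinyl reductase gene DVR, among others. CHL27 gave 11670, 11750 and 9586 in No-0 WT and 10700, 9228 and 8475 in 35S::pBVR3, which overlap, and 4203, 4528 and 3804 in CAB3::pBVR2. The difference of CHL27 between 35S::pBVR3 and No-0 WT, −0.22, did not pass (adjusted p = 0.429, limma). DVR gave 1071, 1315 and 710.3 in No-0 WT, 519.1, 512.9 and 439.4 with 35S::pBVR3 and 150.2, 152.9 and 194.1 with CAB3::pBVR2, with no overlap. DVR fell by 1.03 between 35S::pBVR3 and No-0 WT (adjusted p = 0.0281, limma), a call lost without No-0 WT replicate 1 or 2 and without any 1 of the 35S::pBVR3 arrays (adjusted p from 0.0626 to 0.092, limma). The DVR call was also lost with no filter on signal (adjusted p = 0.0805, limma), with only those lines in the fit (adjusted p = 0.0511, limma) and without the moderation of variances in limma (adjusted p = 0.0622). The difference between DVR and CHL27 in this comparison was not tested. LCAA, a further cyclase subunit gene, fell by 1.21 in the mean of the pBVR lines (adjusted p = 0.00152, limma), and its difference of −0.64 in 35S::pBVR3 did not pass (adjusted p = 0.0989, limma) except without No-0 WT replicate 3 (adjusted p = 0.0481, limma).

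Of the genes for ALA formation in the study's list, GSA2 had means of 2578 ± 446, 1223 ± 117 and 465.7 ± 6.67 in the wild type, 35S::pBVR3 and CAB3::pBVR2 (SD, n = 3 arrays). It fell by 1.76 in the mean of the pBVR lines (adjusted p = 0.000109, limma) and fell by 1.06 between 35S::pBVR3 and No-0 WT (adjusted p = 0.0109, limma). HEMA1, the main glutamyl-tRNA reductase gene of green tissue, had means of 2751 ± 195, 1787 ± 440 and 852.5 ± 113 and fell by 1.17 in the mean of the pBVR lines (adjusted p = 0.00117, limma). Its difference of −0.65 in 35S::pBVR3 did not pass (adjusted p = 0.0737, limma) except with a stricter filter (adjusted p = 0.0387, limma).

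**Figure D3:**
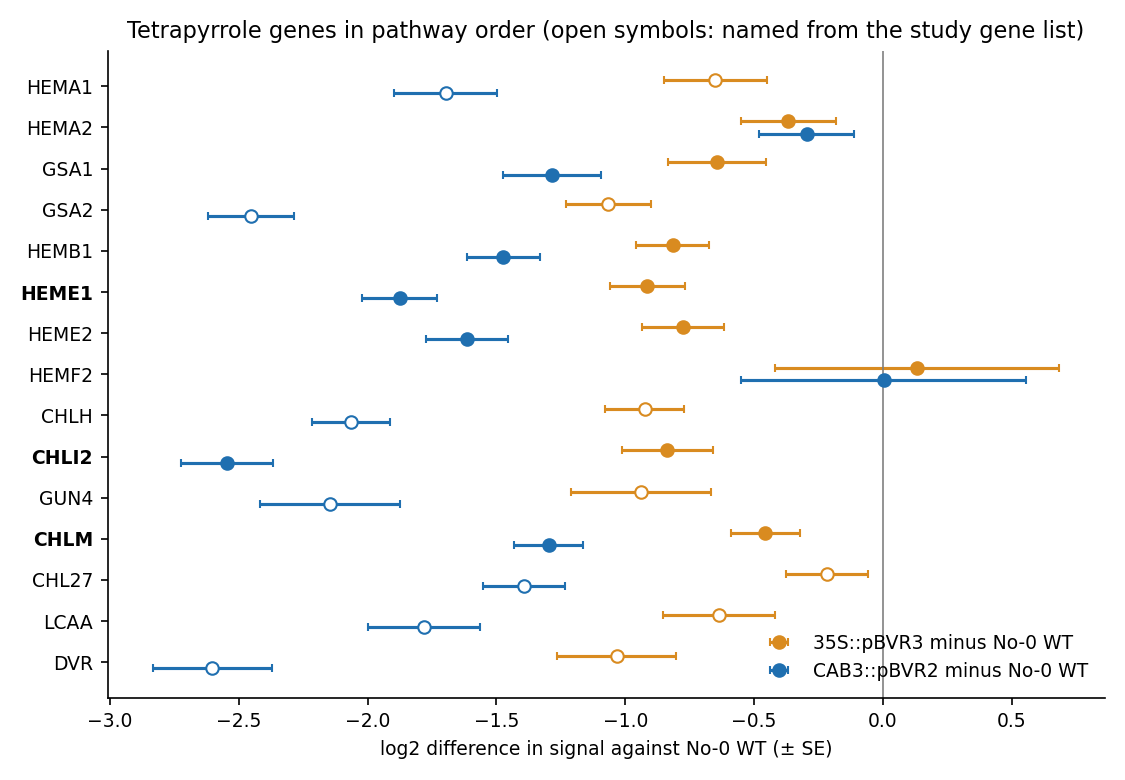
Log2 difference in signal against No-0 WT (horizontal axis, ± SE of the fit over 9 arrays) of 15 tetrapyrrole genes in pathway order, for 35S::pBVR3 and CAB3::pBVR2. Open symbols are genes named through the study's own list, which was selected on these arrays, and HEME1, CHLI2 and CHLM are in bold. Except for HEMA2 and HEMF2, the CAB3::pBVR2 symbol lies to the left of that of 35S::pBVR3 by more than the error bars. The genes in bold were chosen with this difference known, and the study's list was selected by it. Of the other genes to the left, HEMB1 and HEME2 passed in CAB3::pBVR2 against 35S::pBVR3, and GSA1 did not (adjusted p = 0.0727, limma).

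The genes with profiles most like those of the 3 genes were found by the root mean square difference of log2 signals. Each gene was centred on its mean over the 9 arrays, and 8383 kept genes named by the platform table were compared. Genes named only through the study's own list, CHLH, GSA2 and DVR among them, were left out, so nearer profiles may be missed. Nearest to HEME1 were AT5G53900 at 0.09 and AT3G04550 at 0.10, with the gene for a putative chloroplast 30S ribosomal protein, AT3G13120, close to them at 0.10. Nearest to CHLI2 were AT5G42070 at 0.11, AT5G08050 at 0.13 and the flavin reductase-related gene AT2G34460 at 0.13. Nearest to CHLM were AT2G35450 at 0.09, AT3G58140 at 0.10 and GME (AT5G28840), a GDP-mannose epimerase gene, at 0.11.

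The 3 genes were not among the nearest 100 of each other. CHLI2 stood at rank 562 from HEME1 with a difference of 0.39, and CHLM stood at rank 245 from HEME1 with 0.28. From CHLI2, HEME1 stood at rank 150 and CHLM at rank 370, the latter with a difference of 0.55. From CHLM, HEME1 stood at rank 562 and CHLI2 at rank 3183. This measure takes the size of the changes into account as well as their order, and all of these profiles share the same 9 arrays.

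**Figure D4:**
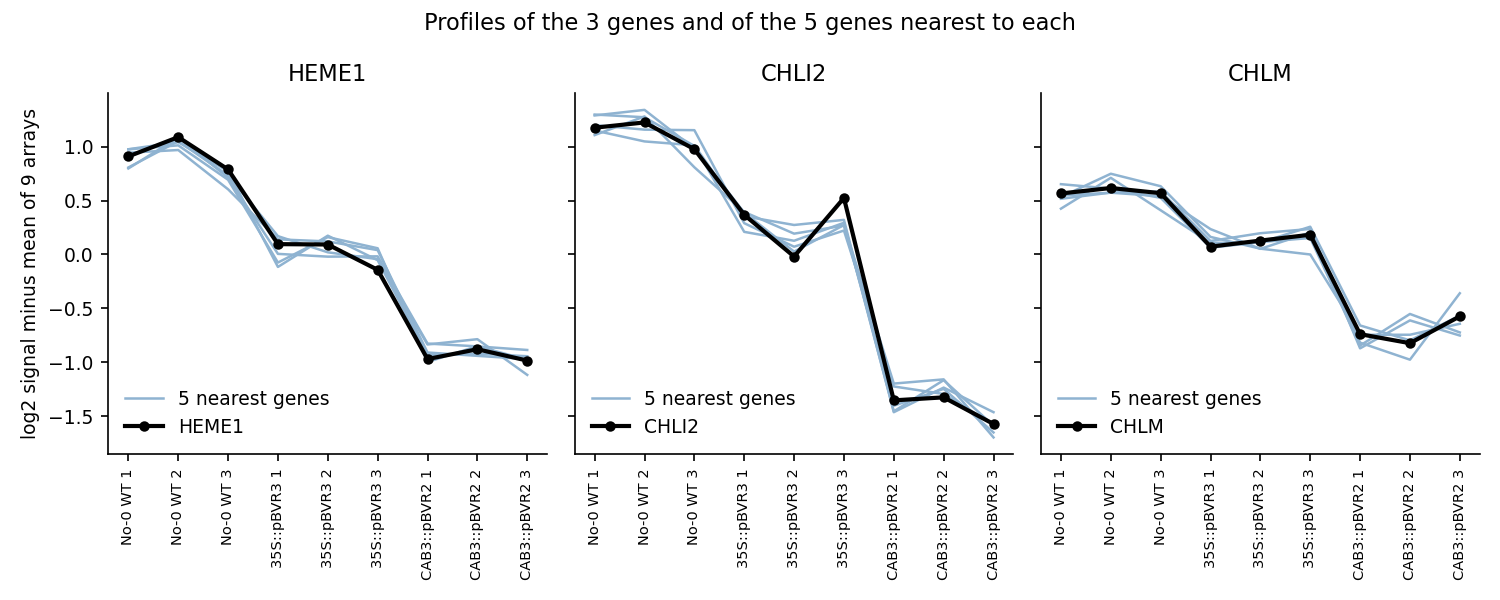
Log2 signal minus the mean of the 9 arrays (vertical axis) on each array (horizontal axis, by line and replicate) for HEME1, CHLI2 and CHLM (black) and for the 5 genes nearest to each (blue). Of the 3 genes, CHLI2 spans the widest range and CHLM the narrowest.

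Correlations of log2 signals ran from 0.948 to 0.968 within a line, from 0.925 to 0.946 between No-0 WT and 35S::pBVR3, from 0.914 to 0.941 between the pBVR lines and from 0.847 to 0.862 between No-0 WT and CAB3::pBVR2, as a description over the same probe sets. Of 9 mesophyll markers, 4 have a name here (LHCB3, CA1, GLDP1 and FBA1), all through the study's own list. That list was selected on these arrays, so the calls and the order of lines of these 4 markers are not independent evidence. They were called lower in the mean of the pBVR lines, beside 17.7% of all kept probe sets. Their summed signal ran from 42356 to 52861 on the No-0 WT arrays, from 27716 to 35979 on those of 35S::pBVR3 and from 7782 to 9175 on those of CAB3::pBVR2, the order of lines seen in the 3 genes, and their part in the result was not tested. Of 12 root markers, only EXPA7 has a name here, with means of 37.1 ± 18, 42.46 ± 22.8 and 68.58 ± 33, near background, and it passed in no comparison. Of 9 vascular and 6 epidermal markers 0 were named, so the share of tissues in the seedlings, and its part in the differences, was not tested.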

How the data were processed

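The authors deposited MAS5 probe set intensities on a linear scale, with MAS5 settings not given in the sources used. Trimmed means are near 500 on all 9 arrays, so the values were scaled before deposit. Biotin-labelled amplified RNA was hybridised, with 1 array per sample. The labels do not state whether the 3 samples of a line came from separate cultures, so p-values measure only the spread between these samples.

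Signals were put on the log2 scale (3 zeros at 0.1) and shifted to each array's 75th percentile, the shift that the study's methods name, and 64 control probe sets were left out. Probe sets at or above the 40th percentile of at least 1 array were kept (15436), in place of the methods' filter on flags. The highest of 27 bacterial controls was taken as background (27 to 48 after the shift), and 97.6 to 99.3% of kept probe sets lay above it. All arrays entered 1 limma fit (limma 3.58.1, R 4.3.3, lmFit and eBayes), adjusted by Benjamini-Hochberg over kept probe sets at a threshold of 0.05. Log2 differences are means with SE from this fit, folds are their antilogs, and ratio tests used scipy 1.17.1. The fit, tested on simulated data with 15436 genes for the mean of the pBVR lines, recovered 59% of 2-fold and 96% of 4-fold changes with 12 false calls. Only 100 genes were changed at each size, and the simulated arrays shared no replicate effect. The data differ in both respects, so these rates need not hold for them. The number of arrays limits the precision.

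The platform table, with names from RefSeq (TAIR10.1), gave 1 gene for 13513 probe sets, several for 503 and none for 8730. The study's gene list named 347 more. Genes named in the text are the 3 genes, all named members of the pathway list, and the nearest 5 profiles of each, of which some are printed. The members and lists were chosen with earlier results of these data known. The methods of the study test across the 3 lines. No promoter windows were given, so the planned motif counts were not run.

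Deviations from the line means correlated between arrays that share a replicate number (r from 0.207 to 0.391 in 9 pairs, against −0.263 to −0.0507 in 18 pairs of different numbers). The deviations of a line cancel out, so positive values for shared numbers bring negative ones for different numbers, which add no separate support. By the rule that every pair sharing a number exceeds 0.1, the numbers were taken to pair the samples. This basis is the data, since the labels do not say what a number marks. The reported limma fit does not use this pairing, and where a block on the replicate number changed a call of a pathway gene, the text says so.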

Additional observations from a re-analysis of the deposited data

How the results depend on the processing

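No called difference changed direction, and every call of the pathway genes named in the mean of the pBVR lines against No-0 WT held, under every alternative run. In 35S::pBVR3 against No-0 WT, CHLI2 was no longer called with no filter on signal (−0.84, adjusted p = 0.0717, limma). With single arrays left out its difference ran from −0.95 to −0.68, with adjusted p from 0.00946 to 0.0867 over all alternatives (limma). CHLM in that comparison (−0.46 in each) passed with a stricter filter (adjusted p = 0.0327, limma), with the replicate block (adjusted p = 0.0487, limma) and with limma without the moderation of variances (adjusted p = 0.0228). The replicate block changed no other limma call of the 3 genes, and beyond them it added GSA1 in both comparisons with 35S::pBVR3, and GUN4 and CHLP against No-0 WT (adjusted p = 0.046 for CHLP, limma).

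Without the shift of arrays, CAB3::pBVR2 against No-0 WT was −1.73 for HEME1, −2.40 for CHLI2 and −1.15 for CHLM. With log2(signal + 32) it was −2.40 for CHLI2, and with quantile normalization −0.82 for CHLM, whose difference between the pBVR lines became −0.59. Of the other tetrapyrrole genes, the 2 called lower in 35S::pBVR3 against No-0 WT became 1 with no filter, 0 to 2 with single arrays left out and 3 with log2(signal + 32), the stricter filter or the replicate block. The 2 between the pBVR lines became 1 with no filter, 1 with only those lines in the fit, 1 to 2 with single arrays left out and 3 with the stricter filter or the block. The ratio of CHLI2 to CHLM ran from −1.14 to −0.67 and that of HEME1 to CHLM from −0.79 to −0.46 under alternatives chosen after seeing the data. With the replicate block as sets for the permutation, the CHLI2 to CHLM ratio (−0.81) and the HEME1 to CHLM ratio (−0.52) no longer passed (exact permutation, adjusted p = 0.111 for both). Leaving out an array also leaves too few arrays for the ratio tests to pass.

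The counts over all probe sets moved more. Those called lower in 35S::pBVR3 ran from 109 without No-0 WT replicate 2 to 1323 with the replicate block (817 in the reported fit), and those called higher from 168 to 1167 (656). In CAB3::pBVR2 against 35S::pBVR3, 619 to 1379 were called lower (1033) and 76 to 637 higher (268). Against No-0 WT the mean of the pBVR lines had 1387 to 2828 called higher (2143). Without the shift, the share of calls that were lower went from 56.1% to 44.2% for the mean of the pBVR lines, from 55.5% to 42.5% for 35S::pBVR3, from 54.6% to 41.6% for CAB3::pBVR2 against No-0 WT and from 79.4% to 68.0% between the pBVR lines, where the median of all probe sets rose to between 0.04 and 0.17. The cause was not tested.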

Other observations

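The genes that follow in the pathway, from the reduction of protochlorophyllide on, were measured for 4 of a list of 7. PORB, a protochlorophyllide oxidoreductase, had means of 2197 ± 76.1 in No-0 WT, 1343 ± 244 with 35S::pBVR3 and 914.5 ± 193 with CAB3::pBVR2 (SD, n = 3 arrays). PORB fell by 1.00 on the log2 scale in the mean of the pBVR lines (adjusted p = 0.0023, limma). CHLP, the geranylgeranyl reductase that supplies the phytol chain of chlorophyll, had means of 12650 ± 1680, 8903 ± 1430 and 4984 ± 386 and fell by 0.92 (adjusted p = 0.00185, limma).

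PORC and PORA were named through the study's own list, selected on these arrays. PORC had means of 527.4 ± 107, 344.8 ± 72.7 and 138 ± 43.8 and fell by 1.29 in the mean of the pBVR lines (adjusted p = 0.00368, limma). PORA, the reductase isoform of dark-grown seedlings, ran the other way: it was not above background on any No-0 WT array, with signals of 14.66, 9.259 and 11.24. It gave 681, 90.73 and 562.2 in 35S::pBVR3 and 216.6, 142.2 and 99.71 in CAB3::pBVR2, whose arrays overlap. PORA passed the filter on signal only through the pBVR arrays and was named through a list selected for the difference between the pBVR lines, so these values are a description with no test.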
